A study of Mus musculus with 40 samples.

Results

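Regions that carried an H3K27me3 peak in the control oligodendrocyte precursor cell (OPC) cultures of the brainstem, and in none of the control cultures of the cortex, were described across all 20 deposited peak lists. The regions were selected on measured values: autosomal bases under a broad H3K27me3 peak in both brainstem control lists (cultures 59 and 61) were kept as contiguous fragments of at least 200 bp, and a fragment was taken where it overlapped no H3K27me3 peak in any of the 3 cortex control lists (cultures 59, 60 and 61). Of 18250 fragments under both brainstem controls, 1421 met the rule, and they covered 853085 bp of 37696505 bp. The other 16829 fragments overlapped a peak of at least 1 cortex control and are called shared regions here. Over the whole series, the 10 H3K27me3 lists merged into 79131 autosomal regions. The regions under both brainstem controls only are called brainstem-control regions below.

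The cultures were grown from mice carrying a conditional H3-3a-LSL-K27M knock-in, which expresses the K27M form of histone H3.3 from its own locus after Cre removes a stop cassette, and hGFAP-Cre, which is active in neural progenitors (the labels write the line as AMGFAP-Cre;K27M). Litters were taken at P5 to P7, and brainstem or dorsal telencephalon (cortex, corpus callosum and hippocampus, which the labels call cortex) was pooled by region and genotype. OPCs were isolated by panning on an antibody to PDGFRa and kept in proliferation medium with no differentiation. Control cultures came from littermates. The groups held 2 brainstem and 3 cortex cultures for each genotype, each with an H3K27me3 and an H3K4me3 list. No spread between separate animals was measured, because each culture was a pool, and p-values describe the spread between cultures.

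H3K27me3 is the histone mark written by Polycomb repressive complex 2, and broad domains of it cover developmental genes that a cell lineage keeps silent. H3K4me3 marks the promoters of active genes and also stands beside H3K27me3 at poised, bivalent promoters. The K27M form of H3.3 interferes with Polycomb repressive complex 2, and cells that express it lose H3K27me3 from most of the genome while some Polycomb domains keep it. Forebrain regulators such as Emx2 and Fezf2 pattern the telencephalon and are not used in the hindbrain.

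The lists differed in size, which bears on the choice of regions. The H3K27me3 control lists held from 12715 to 64808 peaks and the K27M lists from 4739 to 15753 peaks, and the H3K4me3 lists held from 20961 to 31200 peaks. Read depth is not part of the lists, and the read totals that the study states for its libraries were not used here. Single libraries set the number of regions: 21554 fragments met the rule without brainstem control 61, 5428 without brainstem control 59 and 3517 without cortex control 61, against 1421 with all of them. The promoters of all 5 OPC markers read (Pdgfra, Cspg4, Olig1, Olig2 and Sox10) carried an H3K4me3 peak in all 10 lists and an H3K27me3 peak in none. None of the 4 microglial markers carried H3K4me3 in any list, and of the 4 endothelial markers 1, Flt1, carried it in all 10 and 2, Pecam1 and Cdh5, in none. All 4 neuronal markers and 2 of 4 astrocyte markers had H3K4me3 in all 10 lists, so these promoter peaks do not tell those cell types from OPCs. In a bulk list, fewer cells with the mark and less of the mark in each cell cannot be told apart.

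The sequences below show what kind of DNA the regions held. Each is a window of 150 bp from the middle of a region (or as near to it as annotated exons allowed), on the plus strand of GRCm38, the assembly of the mm10 coordinates, as RefSeq gives it, with every CpG in capitals. The first set lies in the regions at the 6 protein-coding promoters with the most bases under brainstem-control regions: Pou2af1, a B cell transcriptional coactivator; Fsip1, a sperm sheath interacting protein; Inpp5a, an inositol phosphate phosphatase; Tppp3, a tubulin-binding protein; Vps4a, an ATPase of membrane scission; and Kcnk18, a potassium channel.
Pou2af1 (chr9:51231648-51231797): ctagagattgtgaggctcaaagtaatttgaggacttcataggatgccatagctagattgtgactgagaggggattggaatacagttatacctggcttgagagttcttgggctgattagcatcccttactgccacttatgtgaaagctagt
Fsip1 (chr2:118258552-118258701): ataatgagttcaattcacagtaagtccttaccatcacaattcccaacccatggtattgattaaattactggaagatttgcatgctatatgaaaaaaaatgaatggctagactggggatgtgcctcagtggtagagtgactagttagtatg
Inpp5a (chr7:139522332-139522481): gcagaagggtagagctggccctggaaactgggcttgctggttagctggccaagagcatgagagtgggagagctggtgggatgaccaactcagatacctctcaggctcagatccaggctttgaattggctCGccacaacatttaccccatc
Tppp3 (chr8:105471527-105471676): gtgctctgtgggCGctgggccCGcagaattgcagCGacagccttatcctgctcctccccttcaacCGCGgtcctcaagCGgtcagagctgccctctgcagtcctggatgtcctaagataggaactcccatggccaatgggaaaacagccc
Vps4a (chr8:107029269-107029418): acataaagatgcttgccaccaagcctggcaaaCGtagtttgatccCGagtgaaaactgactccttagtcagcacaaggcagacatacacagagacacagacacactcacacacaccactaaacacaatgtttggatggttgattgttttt
Kcnk18 (chr19:59217704-59217853): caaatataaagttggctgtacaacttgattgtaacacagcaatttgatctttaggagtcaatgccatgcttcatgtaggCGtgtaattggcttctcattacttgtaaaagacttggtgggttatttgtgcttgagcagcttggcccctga

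These windows held from 0 to 6 CpG, the highest number at Tppp3. The next set was chosen after values were seen, because each lies in a region with an H3K27me3 peak in both brainstem K27M lists and in no cortex K27M list. Their nearest protein-coding starts belong to Emx2, a homeobox factor of the dorsal telencephalon; Nr2e1, an orphan nuclear receptor of forebrain stem cells; Fezf2, a zinc finger factor of deep-layer cortical neurons; and Tle4, a Groucho family corepressor.
Emx2 (chr19:59474172-59474321): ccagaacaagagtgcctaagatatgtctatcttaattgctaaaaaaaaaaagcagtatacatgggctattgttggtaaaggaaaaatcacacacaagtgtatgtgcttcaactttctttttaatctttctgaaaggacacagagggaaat
Nr2e1 (chr10:42561813-42561962): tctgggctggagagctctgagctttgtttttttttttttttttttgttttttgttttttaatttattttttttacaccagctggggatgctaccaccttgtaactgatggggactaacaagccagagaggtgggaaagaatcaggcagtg
Fezf2 (chr14:12355620-12355769): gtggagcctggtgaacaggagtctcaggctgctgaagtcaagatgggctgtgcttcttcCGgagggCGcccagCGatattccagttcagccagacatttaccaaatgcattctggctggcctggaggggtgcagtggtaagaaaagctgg
Tle4 (chr19:14895430-14895579): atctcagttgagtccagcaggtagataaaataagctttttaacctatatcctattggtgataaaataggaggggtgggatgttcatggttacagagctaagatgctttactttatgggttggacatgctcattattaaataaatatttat

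The Fezf2 window had 3 CpG, and those of Emx2, Nr2e1 and Tle4 had 0. In the central 150 bp of all 1421 brainstem-control regions, 68.1% held at least 1 CG pair, against 72.7% of the 16829 shared regions. Over whole regions the median CpG density was 0.758 per 100 bp, against 1.01 per 100 bp in shared regions and 0.851 per 100 bp over the autosomes. Only 17 brainstem-control regions (1.20%) reached 3 CpG per 100 bp, against 8.94% of shared regions. GC content had a median of 43.5% against 45.9% in shared regions. Soft-masked repeats made up a median of 16.1% of a brainstem-control region and 17.1% of a shared one, against 33.5% of the autosomes. High CpG densities were thus rarer in these regions than in shared ones, and the repeat content was close to theirs.

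Brainstem-control regions were short and weakly enriched, and the values that took part in the choice are given as a description. Their median length was 443 bp (lowest 200, highest 5872), against 941 bp for shared regions. The fold enrichment of the overlapping control peak, a value that MACS2 gives for a whole peak over its input, had a median of 2.33 in culture 59 and 2.79 in culture 61, against 2.89 and 2.94 for shared regions. The −log10 q of the control peak, had medians of 2.14 and 1.95, against 4.51 and 2.45. Just inside the length limit stood 27 regions under 220 bp, of which 0% and 3.70% had a peak in brainstem K27M cultures 59 and 61, and just outside stood 26 fragments from 180 bp, of which 0% and 0% did. Just outside the overlap limit stood 74 fragments with 1 to 50 bp under a cortex control peak, of which 1.35% and 4.05% did. A peak of a cortex control lay within 1000 bp of 610 brainstem-control regions and within 5000 bp of 1043, so most lay beside a cortex control peak. Another 99 regions had no cortex control peak within 50000 bp.

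Most brainstem-control regions lay between genes or in introns. Counted in order of precedence over all GENCODE M21 genes, 132 (9.29%) overlapped a promoter (2000 bp upstream to 1000 bp downstream of an annotated start), 63 (4.43%) an exon, 496 (34.9%) only introns, and 730 (51.4%) no gene. Of shared regions, 29.0% overlapped a promoter and 22.8% only introns. The nearest protein-coding start lay at a median of 27356 bp, against 11567 bp for shared regions. By chromosome, brainstem-control regions made up from 3.87% of the fragments of chromosome 11 to 13.1% of those of chromosome 3.

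**Figure D1:**
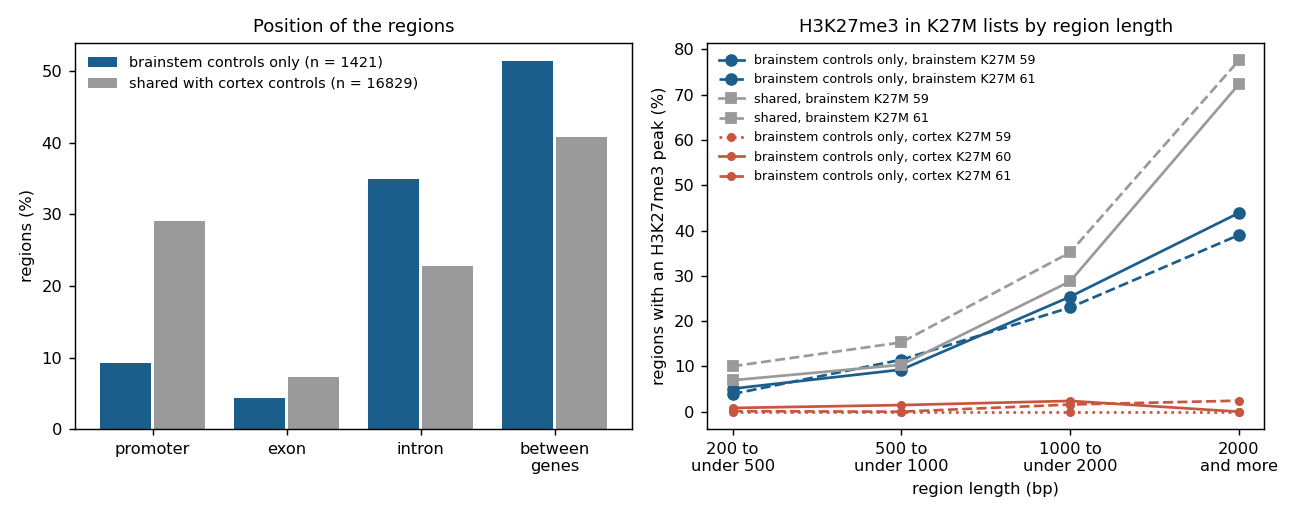
Left, the share of regions in percent at promoters, exons, introns and between genes, for the 1421 brainstem-control regions and the 16829 shared regions. Right, the share of regions with an H3K27me3 peak in each K27M list (percent, vertical axis) against region length in bp, where each line is 1 list, for brainstem-control regions (blue in brainstem, red in cortex lists) and for shared regions in brainstem lists (grey); in the longest class the brainstem-control regions reach 43.9% and 39.0% in the brainstem K27M lists, and the cortex K27M lists stay at or under 2.44%.

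Whether the regional difference of the controls was also found in cultures that took no part in the choice was read in the K27M lists. These cultures are the same-numbered partners of the littermate controls that chose the regions, so they are not fully independent of them. In brainstem K27M culture 59, 131 of the 1421 regions (9.22%) carried an H3K27me3 peak, and in culture 61, 125 did (8.80%). In the cortex K27M cultures the count was 0 of 1421 in culture 59, where a missing peak sets no limit on the signal below the threshold. The count was 16 (1.13%) in culture 60 and 4 (0.281%) in culture 61. Every brainstem list stood above every cortex list, with means of 9.01% ± 0.299 (SD, n = 2) and 0.469% ± 0.586 (SD, n = 3). The difference was 8.54 percentage points (two-sided exact permutation test over cultures, p = 0.1, which is the smallest p that 2 against 3 cultures allow). The size of the difference rested on both brainstem controls: it was 3.61 percentage points without brainstem control 59 in the rule and 0.605 without brainstem control 61.

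The same shares were read at shared regions, since the lists differ in size. There the brainstem K27M lists had peaks over 30.4% and 35.3% of regions, and the cortex K27M lists over 17.2%, 35.2% and 28.9%, so these groups overlapped. Relative to the share at shared regions, the brainstem-control regions stood at -1.72 and -1.998 on the log2 scale in brainstem K27M cultures 59 and 61. In cortex K27M cultures 59, 60 and 61 the same log2 ratio was -8.93, -4.92 and -6.51, the first of them set by the 0.5 region added to a count of 0. The difference of the means was 4.93 on the log2 scale (two-sided exact permutation test, p = 0.1, again the smallest that this design allows). Without cortex control 60 in the rule it was 3.08.

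Beside shared regions weighted by length and enrichment, the brainstem-control regions stood close in brainstem K27M culture 59. They stood lower in brainstem K27M culture 61 and in the cortex K27M lists. The longest class, 2000 bp and more, had no upper bound. In that class 43.9% and 39.0% of brainstem-control regions had a peak in brainstem K27M cultures 59 and 61, against 72.3% and 77.6% of shared regions. When shared regions were weighted to the same classes of length and control fold enrichment, 9.47% and 12.6% of them carried a peak in brainstem K27M cultures 59 and 61, against 9.22% and 8.80% of brainstem-control regions. In cortex K27M cultures 59, 60 and 61 the weighted share was 3.77%, 13.9% and 10.0%, against 0%, 1.13% and 0.281% of brainstem-control regions. Without weighting, the mean difference between brainstem-control and shared regions in the brainstem K27M lists was -23.8 percentage points, a value with no test over 2 cultures; with weighting it was -2.05. The reverse regions, 451 fragments under all 3 cortex controls and no brainstem control, had the opposite order: a peak stood over 0.222% and 1.33% of them in the brainstem K27M lists and over 6.43%, 14.2% and 15.5% in the cortex K27M lists.

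**Figure D2:**
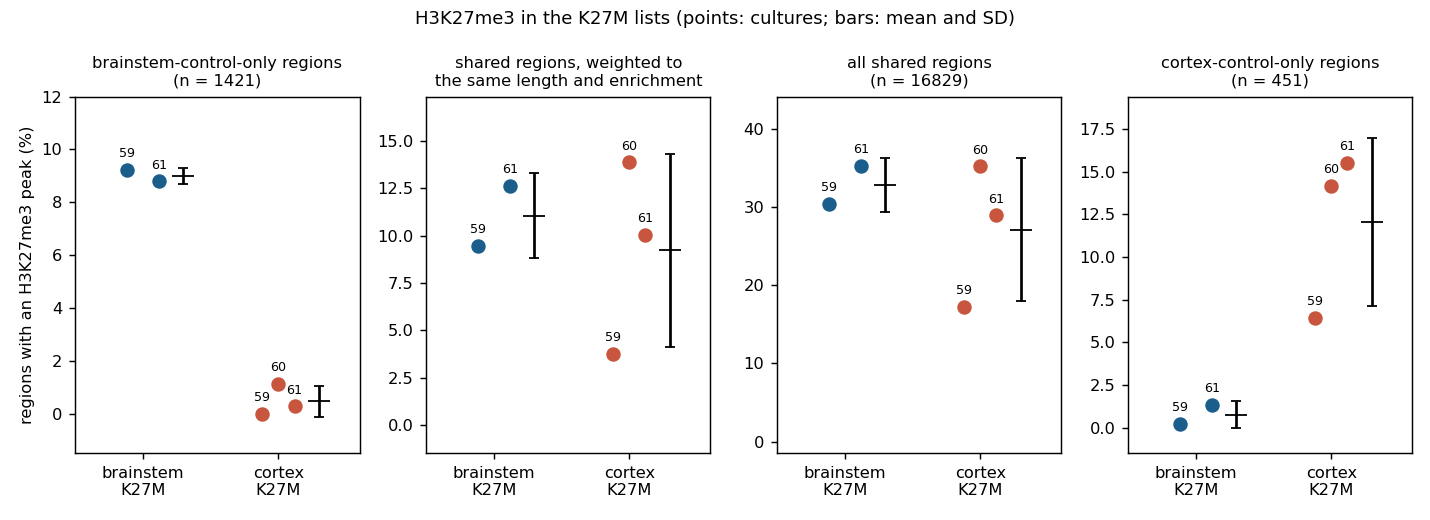
Each panel plots the percent of regions with an H3K27me3 peak in the K27M lists, with a point for each culture (numbered) and a bar for the mean and SD of the 2 brainstem and 3 cortex cultures; the vertical scales differ. The brainstem points lie above all cortex points at the brainstem-control regions (9.22% and 8.80% against 0% to 1.13%), below them at the cortex-control-only regions, and among them at shared regions, weighted or not.

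In all, 176 regions (12.4%) carried a peak in at least 1 brainstem K27M list and are called kept, 80 of them in both, and 1245 in neither. A peak stood in at least 1 cortex K27M list over 18 regions (1.27%). Both brainstem K27M lists and no cortex K27M list covered 73 regions (5.14%), against 2.75% of all 18250 fragments and 2.54% of shared regions. The pattern was not particular to the brainstem-control regions. It stood at 6.10% of the 82 shared regions with under 10% of their bases under a cortex control peak. Of the 623 with 10% to under 50% it stood at 8.35%, and of those with 50% and more at 2.30%. The opposite pattern, all 3 cortex K27M lists and no brainstem K27M list, was found at 0 brainstem-control regions, against 0.69% of all fragments. Among fragments under both brainstem controls, the share with a peak in any brainstem K27M list was 12.4% with no cortex control list, 9.05% with 1, 25.9% with 2 and 63.9% with all 3. The share with a peak in any cortex K27M list was 1.27%, 3.71%, 23.8% and 66.8% in the same order. The brainstem share was therefore higher with no cortex control list than with 1, and the cortex share was not.

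**Figure D3:**
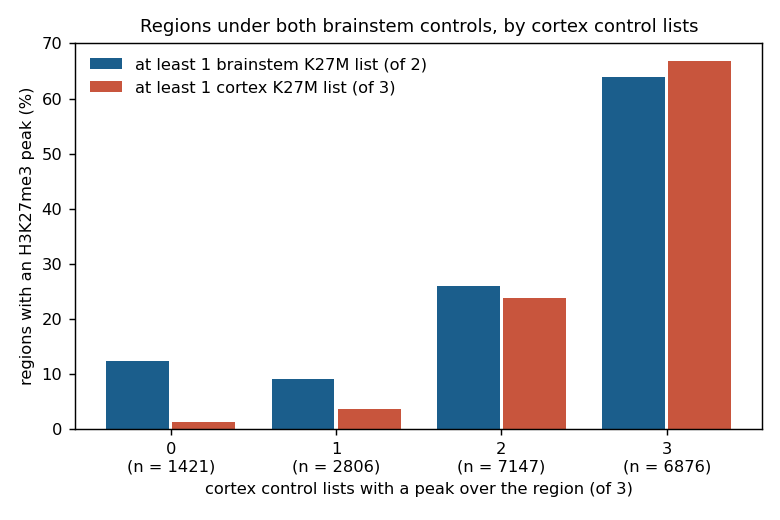
Bars give the percent of the fragments under both brainstem controls that carry an H3K27me3 peak in at least 1 brainstem (blue) or cortex (red) K27M list, by how many of the 3 cortex control lists have a peak over the fragment. The left pair of bars is the brainstem-control regions, at 12.4% and 1.27%.

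Longer regions and regions with stronger control peaks more often had a K27M peak in the brainstem lists, where a longer region also offers more bases for a peak to touch. Regions under 500 bp carried a peak in 5.09% and 3.91% of cases in cultures 59 and 61, and regions of 2000 bp and more in 43.9% and 39.0%. By control fold enrichment, the share went from 2.63% and 1.20% under a fold of 2.5 to 37.7% and 36.0% at a fold of 3.5 and more. The 80 regions kept in both brainstem K27M lists had a median length of 771 bp and a median fold of 3.66 in brainstem control 61, and those in neither had 425 bp and 2.75. In brainstem control 59 the median fold was 2.29 for the kept regions and 2.33 for those in neither, so the difference in control enrichment stood in culture 61 and not in culture 59.

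The K27M peaks over brainstem-control regions were mostly weak, and a few were strong. Their fold enrichment had a median of 3.04 in culture 59 (lowest 2.26, highest 26.2) and 3.16 in culture 61 (lowest 2.48, highest 33.8). A fold of 20 and more stood over 6 of the 131 regions with a peak in culture 59 and over 11 of the 125 in culture 61. Of shared regions with a peak it stood over 240 of 5114 and 347 of 5934. Regions under such peaks made up a like part of both sets in culture 59, and the difference in culture 61 was not tested. All 11 regions with such a fold in either list lay near Nr2e1 and its neighbour Ostm1, Sp8, Fezf2, Sim2 (2 regions), Foxd4, Dmrt2, Dmrt3, Emx2 and Zdbf2. The Dmrt2 region was touched over 0.497% of its 604 bp in culture 61 and not in culture 59. Apart from Ostm1 and Zdbf2, these are genes of developmental transcription factors. Regions under 1 peak share its fold and are not separate observations. Those of Nr2e1 and Ostm1 had the same folds (24.7 and 30.9), and both Sim2 regions had 25.1 in culture 61. A fold is that of a whole peak, and the promoter fragments of Sp8, Fezf2, Dmrt2 and Dmrt3 had peaks in all 3 cortex K27M lists. In the cortex K27M lists the folds over brainstem-control regions ranged from 2.22 to 3.29 (16 regions in culture 60 and 4 in culture 61), while at shared regions they reached 30.9 and 33.7 in these cultures.

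Forebrain patterning genes were read by the regions nearest to them. Of the 40 forebrain patterning transcription factors, 0 had a brainstem-control region at the promoter, where 0.341% of all protein-coding genes did, so this 0 is no result about them. A region lay at the promoter or in the body of 3 (7.5%, against 1.58% of all protein-coding genes), among them Nr2e1 (498 bp) and Dmrt3 (246 bp). In all, 27 regions (1.90%) had a forebrain gene as their nearest protein-coding start, against 0.885% of shared regions, and these 27 fell to 13 genes. Of the 36 midbrain, hindbrain and spinal patterning genes, 3 were nearest to a region (8 regions, 0.563%), against 1.09% of shared regions. No region had a Hox gene as its nearest start, against 59 shared regions (0.351%). Of the 27 forebrain regions, 10 (37.0%) carried an H3K27me3 peak in at least 1 brainstem K27M list and 7 in both, against 12.4% and 80 of all 1421 regions. Only 1 of the 27, near Six3, carried a peak in a cortex K27M list. Of the 8 midbrain, hindbrain and spinal regions, 2 carried a peak in both brainstem K27M lists. In at least 1 of them a peak stood over 4 of 5 regions nearest to Nkx6-2, 2 of 2 at Dbx1 and 0 of 1 at Nkx6-1. Kept regions were thus not particular to forebrain genes. These lists were drawn up with earlier results of these data known, and the shares are a description with no test.

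Emx2 had 5 regions, from 10419 to 69954 bp from its start. The longest (chr19:59473221-59475272, 2052 bp, between genes) was covered over 92.3% and 75.4% of its bases in brainstem K27M cultures 59 and 61. The peaks over it had fold enrichments of 2.59 and 8.97 in brainstem controls 59 and 61, and of 26.1 and 33.8 in brainstem K27M cultures 59 and 61. The control 59 value is that of a separate peak, 14.849 to 17.439 kb from the start, and the others are those of a long domain. Over the fragment at the Emx2 promoter the control 59 fold was 7.74. At the shared Dlx5 fragment it was 9.54 in brainstem control 59 and 29.7 in brainstem K27M 59. Without a spike-in, folds do not compare the amount of the mark between genotypes. A second region in the antisense gene Emx2os (chr19:59443571-59444362, 792 bp) was covered over 63.4% and 50.1% with folds of 2.499 and 2.73. No cortex K27M list had a peak over any of the 5. The nearest 3 flanked a fragment of 27295 bp over the Emx2 promoter (chr19:59445455-59472749), which cortex controls covered over 36.0% and which was therefore outside the rule. That fragment was covered over 98.8% and 98.5% in the brainstem K27M lists, and over 0%, 89.0% and 0% in cortex K27M cultures 59, 60 and 61.

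At Nr2e1, a region of 904 bp at the end of the gene (chr10:42561557-42562460) was covered over 100% in both brainstem K27M lists, at folds of 24.7 and 30.9, and in no cortex K27M list. The adjoining promoter fragment of 31668 bp had 17.5% of its bases under cortex controls and was covered over 100% in both brainstem K27M lists and 0% in all 3 cortex K27M lists. Fezf2 had 3 regions, and the nearest (chr14:12355344-12356046, 703 bp, 7155 bp from the start) was covered over 100% in both brainstem K27M lists at folds of 24.6 and 27.4. The Fezf2 promoter fragment itself had 96.6% of its bases under a peak of at least 1 cortex control, and it was covered over 83.9%, 92.0% and 86.0% in cortex K27M cultures 59, 60 and 61, so the domain as a whole was present in both tissues.

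Of the other forebrain genes, Dmrt3, a DM-domain factor, had 5 regions, and the one in its exon (chr19:25623676-25624071, 396 bp) was covered over 100% in both brainstem K27M lists, at folds of 21.5 and 27.1. Gsx2, a homeobox factor of the ventral telencephalon, had 2 regions, of which 1 was covered over 100% and 77.8%, at folds of 10.7 and 10.8. Sp8, a zinc finger factor, had 1 region with a peak in culture 61 alone, at a fold of 32.7 over 24.4% of its bases. The promoter fragments of these genes carried H3K27me3 in all 3 cortex K27M lists, with 70.1%, 86.2% and 75.8% of the bases covered in cultures 59, 60 and 61 at Dmrt3, 26.3%, 39.96% and 78.0% at Gsx2, and 82.9%, 93.7% and 86.5% at Sp8. The regions nearest to Dlx5 (2), Dlx6 (2), Nr2f1 (1), Nr2f2 (1) and Six3 (1) had no peak in either brainstem K27M list. Since MACS2 gives 1 value for a peak, a fold over a region at the edge of a domain is that of the whole domain.

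**Figure D4:**
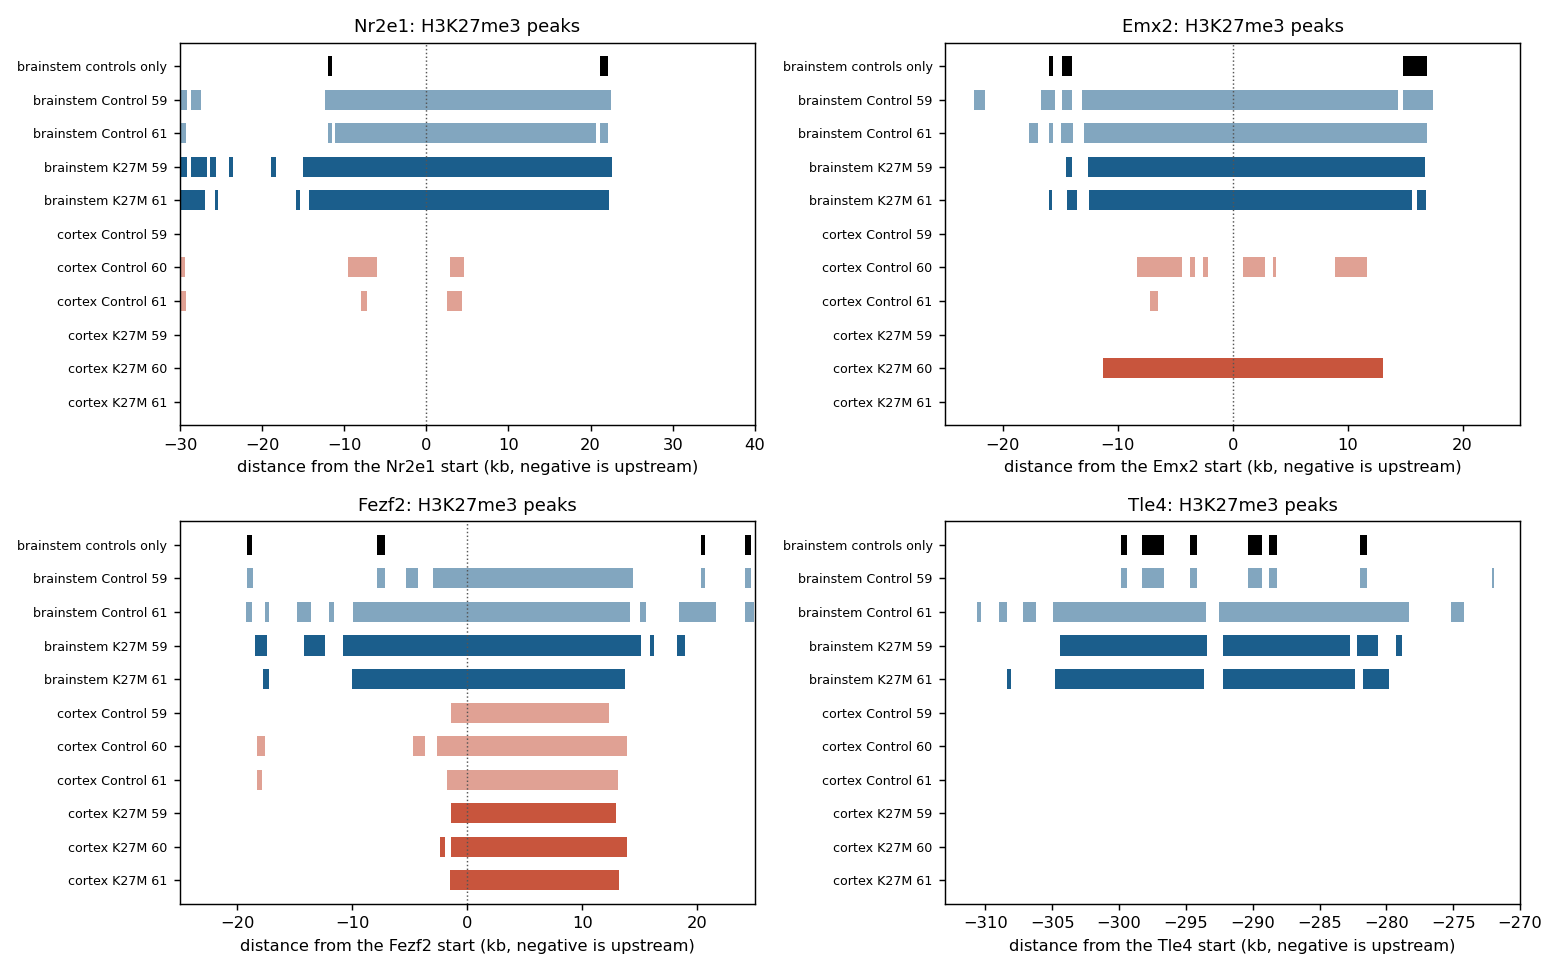
Bars mark H3K27me3 peaks in each of the 10 lists (brainstem blue, cortex red, controls pale) and the brainstem-control regions (black), by distance in kb from the start of Nr2e1, Emx2, Fezf2 and Tle4. At Nr2e1, Emx2 and Fezf2 the black bars lie near or beyond the edges of a long brainstem domain, and some lie inside it in part of the brainstem lists. The window upstream of Tle4 holds peaks in brainstem lists and none in the 6 cortex lists.

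Promoter H3K4me3 of the nearest genes was compared between the tissues. A promoter H3K4me3 peak in all 3 cortex K27M lists and in no brainstem K27M list was found at 15 of 20807 autosomal protein-coding genes (0.0721%). Among the 892 protein-coding genes nearest to a brainstem-control region it was found at 8 (0.897%), among them Emx2, Fezf2, Nr2e1, Six3, Dmrt2 and Fbln2. Genes nearest to shared regions were not counted for this pattern. Of the 13 forebrain genes nearest to a region 5 had it, which are among the 8, and of the other 27 forebrain genes 0 did. The opposite pattern, both brainstem K27M lists and no cortex K27M list, stood at 0 of the 892 genes, against 0.0961% of all genes. In controls, H3K4me3 in all 3 cortex lists and no brainstem list was found at 0.0192% of all genes and the opposite at 0.024%, and at 0 of the 892 genes in either direction. For Emx2, Nr2e1 and Fezf2 the promoter carried H3K4me3 in both brainstem controls and all 3 cortex controls. This comparison of the nearest genes was chosen after the values were seen.

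H3K4me3 over the regions themselves was rare. In controls, 14 and 16 regions (0.985% and 1.13%) carried it in the brainstem lists 59 and 61, and 10, 20 and 21 (0.704%, 1.41% and 1.48%) in the cortex lists 59, 60 and 61. In K27M lists the counts were 24 and 14 (1.69% and 0.985%) in brainstem and 15, 19 and 21 (1.06%, 1.34% and 1.48%) in cortex. The tissues overlapped in both genotypes, with a brainstem minus cortex difference of -0.141 percentage points in controls (two-sided exact permutation test, p = 0.8) and 0.0469 in K27M (exact permutation p = 1). Averaged over genotypes, with labels permuted within genotype, the difference was -0.0469 percentage points (exact permutation p = 0.79, with a smallest possible p of 0.01). K27M minus control in the 5 matched cultures had a mean of 0.169 percentage points (two-sided exact sign-flip permutation test, p = 0.5, with a smallest possible p of 0.0625). It was higher in 2 cultures, lower in 2 and equal in 1.

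**Figure D5:**
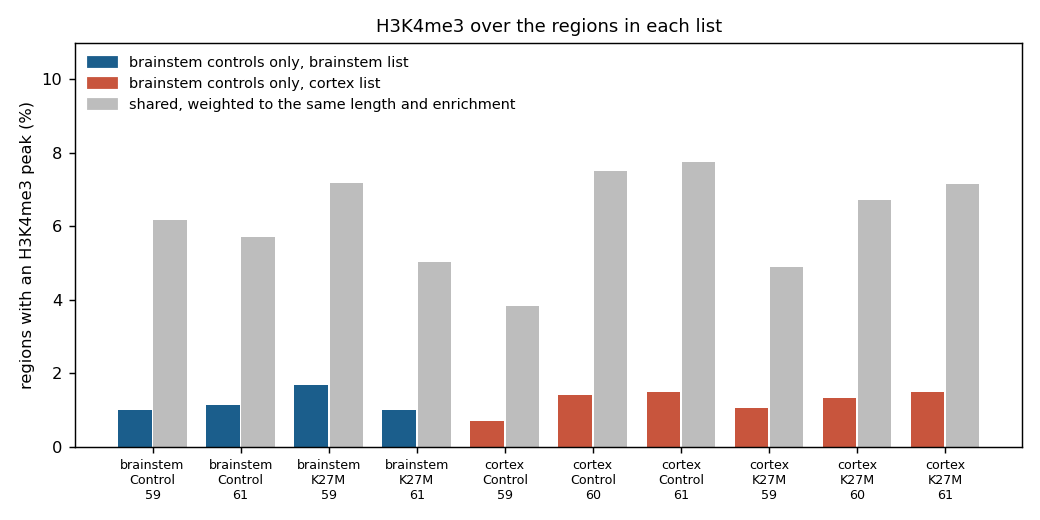
Bars give the percent of the 1421 brainstem-control regions with an H3K4me3 peak in each of the 10 lists (brainstem blue, cortex red), beside that of shared regions weighted to the same length and enrichment (grey). The coloured bars stay between 0.704% and 1.69%, and the grey bars between 3.83% and 7.76%.

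Shared regions weighted to the same length and enrichment carried H3K4me3 in 3.83% to 7.76% of cases, above the brainstem-control regions in every list. In all, 34 brainstem-control regions (2.39%) had an H3K4me3 peak in at least 1 list, against 21.2% of shared regions. No region had it in all 6 cortex lists and no brainstem list, where 0% of all fragments did, or in all 4 brainstem lists and no cortex list, where 0.011% did. The 7 regions with H3K4me3 in all 10 lists were nearest to Fsip1, Gm2115, Rims3, a synaptic vesicle release protein, Eya4, a transcriptional coactivator, Ptchd4, Glce, an enzyme of heparan sulfate synthesis, and Atp5g3. Of these 7, the regions at Fsip1 and Gm2115 also had H3K27me3 in both brainstem K27M lists.

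Counting genes, 131 of 51229 autosomal genes (0.256%) had a brainstem-control region at the promoter, 71 of them protein-coding, and 490 (0.956%) had one at the promoter or in the body. Fsip1 was covered over 1947 bp of its promoter windows and Inpp5a over 1839 bp, and the promoters of both carried H3K27me3 in 2 of 2 brainstem controls, 0 of 3 cortex controls, 2 of 2 brainstem K27M lists and 0 of 3 cortex K27M lists, beside H3K4me3 in all 10 lists. Gm2115 (736 bp) had the same pattern. Vps4a (1238 bp) had H3K27me3 in both brainstem controls and 1 brainstem K27M list. Tppp3 (1787 bp), Kcnk18 (1130 bp), Mmadhc of cobalamin metabolism (977 bp), Olfr1049, an olfactory receptor (860 bp), Cpb2, a plasma carboxypeptidase (844 bp), and Lrriq1 (688 bp) had it in both brainstem controls and in no other list. Dnah14, an axonemal dynein (563 bp), had it in both brainstem controls, both brainstem K27M lists and 1 cortex K27M list.

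At the other 9 of the 20 protein-coding promoters with the most bases, another part of the promoter windows carried H3K27me3 in 1 or more cortex controls. These were Pou2af1 (2570 bp), Nptx2, a neuronal pentraxin (794 bp), Slc34a1, a phosphate transporter (771 bp), Optn, an autophagy receptor (686 bp), Rbms1, an RNA-binding protein (604 bp), Dlg2, a synaptic scaffold (601 bp), Cpne9 (578 bp), Dazl, a germ cell RNA-binding protein (526 bp), and Camkk1, a calmodulin-dependent kinase kinase (523 bp). At Tppp3 the H3K4me3 peak stood in 1 of 2 brainstem and 2 of 3 cortex controls, and in 0 of 2 brainstem and 2 of 3 cortex K27M lists.

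Regions gathered at some loci. Joined within 50000 bp they made 903 loci, 668 of a single region and 31 of at least 5, and the latter held 259 regions. The largest lay at Atxn7l1, a component of a histone acetyltransferase family, with 29 regions over 263854 bp (chr12:33152538-33416391), 3 of them with a peak in a brainstem K27M list and 0 in both. Cradd, a death domain adaptor, had 15 regions, 2 of them kept, and the Pou2af1 and Colca2 locus had 14 with 0 kept. The Dmrt1, Dmrt3 and Dmrt2 cluster held 12 regions, of which 2 had a peak in a brainstem K27M list, 1 of them the Dmrt2 region touched over 0.497% of its bases. Of 11 regions each at Vps4a and Inpp5a, 8 were kept in at least 1 brainstem K27M list at either locus, and 0 and 1 in both. No region of these 6 loci had a peak in a cortex K27M list.

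A locus upstream of Tle4 had the mark in both brainstem K27M lists at every region. It held 6 regions over 18397 bp (chr19:14879478-14897874), from 281427 to 299381 bp from the nearest Tle4 start, and all 6 carried H3K27me3 in both brainstem K27M lists and in none of the cortex K27M lists. The peaks over 5 of them had folds of 6.27 to 7.20 in culture 59 and 6.33 to 7.03 in culture 61, and the sixth of 2.88 and 2.86. These 5 regions lay under 2 long peaks in each brainstem K27M list, so they are not separate observations. In the controls the folds were 1.97 to 2.42 in brainstem culture 59 and 5.04 to 5.12 in culture 61. These folds do not compare the amount of the mark between genotypes either. The other 5 regions nearest to Tle4 had no K27M peak, and the 2 nearest to its start lay at 3460 and 5514 bp. Near Egr3, an immediate early zinc finger factor, 4 of 10 regions of the locus were kept in both brainstem K27M lists, and near Sim2, a bHLH-PAS factor, all 4 were kept in at least 1.

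The 10 longest regions were mixed in their fate. The longest (chr8:100509889-100515760, 5872 bp) lay between genes, 1093418 bp from the start of Cdh8, a classical cadherin, with the nearest cortex control peak 814419 bp away. It was covered over 21.8% and 33.6% in the brainstem K27M lists and over 9.47% in cortex K27M culture 61. Those in Fsip1 (3120 bp) and near Ifngr1 (2916 bp) were in both brainstem K27M lists and no cortex one, and those at Vps4a (2900 bp, in an intron of Sntb2) and Ralgapa2 (2816 bp) in 1 brainstem K27M list. The region near Vps4a had folds of 7.01 in brainstem control 61 and 8.66 in brainstem K27M 59. Those in Stag1 (3591 bp), Atxn7l1 (3083 bp), Pou2af1 (2850 bp) and Camk2d (2754 bp) and near Pmp2 (3147 bp) had a peak in no K27M list.

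Among the 73 regions of both brainstem K27M lists and no cortex K27M list, the 10 longest lay at Fsip1 (2 regions), Galntl6, a glycosyltransferase (2 regions), and Ifngr1, Creb5, Inpp5a, Igfbp7, Ralgapa2 and Nfkb2 (1 each). The region of 2613 bp in an intron of Galntl6 (chr8:57986193-57988805) had no cortex control peak within 539491 bp and was covered over 82.3% and 53.4% in the brainstem K27M lists. That of 2588 bp in Creb5, a cAMP-response family factor, was covered over 56.6% and 15.6%. No region was in all 3 cortex K27M lists, and 2 were in 2 of them, both also in both brainstem K27M lists: 1 in Gli2, the hedgehog effector (1652 bp), and 1 in Auts2 (1459 bp). The Auts2 region was covered over 100% in both brainstem K27M lists, at folds of 5.91 and 6.26, and over 71.4% and 20.4% in cortex K27M cultures 60 and 61, at folds of 2.62 and 2.83.

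Other gene groups are set beside the share over all protein-coding genes, 1.58% of which had a region at the promoter or in the body. A region lay at the promoter or in the body of 10 of 68 axon guidance genes (14.7%, against 1.58% of all protein-coding genes), with the most bases in Plxna4 (2454 bp), Robo3 (929 bp) and Efna5 (690 bp), and 15 of the 68 were the nearest gene of a region; gene length was not taken into account. The 21 regions nearest to an axon guidance gene made up 1.48% of regions, against 0.778% of shared regions. Of these 21, 0 were in both brainstem K27M lists, beside 5.63% of all 1421 regions, and no difference can be read from so few. Of 41 forkhead genes 9 were nearest to a region (18 regions, 1.27%, against 1.02% of shared regions), and Foxp1 held 1891 bp in its body. For BMP and TGF-beta genes these were 9 of 63 (11 regions, 0.774%, against 1.05%), with 941 bp in Tgfb3. Of 51 Wnt pathway genes none was nearest to a region or held one, where 138 shared regions (0.820%) had one as their nearest gene. The same held for the 10 Gata, Tal and Hand genes, with 50 shared regions (0.297%). Of potassium channels, Kcnk18 and Kcnn3 (958 bp) held a region, of sodium and calcium channels Cacna2d4 (1637 bp) and Cacna1c (386 bp), and of cadherins Cdh4 (2338 bp). Notch2 was the only Notch pathway gene with a region (4.35% of the list), over 396 bp of its promoter. Of integrin and laminin genes (4.88%) Itga2 had 304 bp at its promoter and Itgb6 541 bp in its body. Of 1086 olfactory receptor genes, 3 had a region at the promoter (0.276%, against 0.341% of all protein-coding genes). Among 29 oligodendrocyte lineage and myelin genes none held a region and 1 was nearest to one, and of 18 astrocyte genes none held one and 2 were nearest to one. In the other lists, Fgfr2 was the only one of 25 FGF genes with a region (329 bp, 4% of the list), and 2 of 43 glutamate and GABA receptors held one (4.65%). Col27a1 (690 bp) and Col4a3 (310 bp) were the only 2 of 42 collagens (4.76%). Of 18 Sox genes 1 held a region (5.56%), and of 383 genes of a broad zinc finger list 3 did (Zfp541, Zfp385b and Zfp423, 0.783%). None of the 56 clustered protocadherins, 16 T-box, 21 proneural and 7 cyclin-dependent kinase inhibitor genes did. Beside 1.58% of all protein-coding genes, the absence of a gene with a region is no result about lists this short. That holds for the oligodendrocyte and astrocyte lists too. Shares above 1.58% rest on few genes and were not tested.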

How the data were processed

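The deposited peak lists were used as the authors made them. Per the submitters' processing notes and the study's methods, reads were trimmed (Trim Galore 0.6.7, cutadapt 3.4), aligned to mm10 (BWA 0.7.17-r1188) and called with MACS2 2.2.7.1 for each library against its own input, with no pooling, in broad mode for H3K27me3 and in narrow mode for the other mark. The Drosophila spike-in is not part of the calls. Column 7 of the authors' files is the fold enrichment over input, a ratio, and the columns of −log10 p and −log10 q values were deposited beside it. The lists give presence or absence of a peak, so a region without a peak may carry signal under the authors' threshold. The 20 input libraries were not used here.

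Overlaps were computed with numpy 2.4.6 on merged intervals, tested on simulated data (800000 bases, 0 differences), and a peak counted with 1 bp of overlap. Genes and exons came from GENCODE M21 and sequences from RefSeq GRCm38. Groups were taken from the labels. Shares of regions per library were compared by two-sided exact permutation tests over libraries, within genotype or over matched cultures for H3K4me3. The log2 ratio had 0.5 region added to each count. Weighting used length classes bounded at 500, 1000 and 2000 bp and mean control fold classes bounded at 2.5 and 3.5. The study treats control and K27M cultures as pairs. Same-numbered control and K27M H3K4me3 libraries of a tissue deviated together over the 18250 fragments (correlations of deviations from group means of 0.154 to 0.786 over 5 cultures). Both brainstem cultures have the value 0.154, since 2 deviations from their mean mirror each other. Same-numbered brainstem and cortex H3K4me3 libraries deviated in opposite directions (-0.632 to -0.182). For H3K27me3 in K27M these correlations were 0.120 and 0.0776, so the block by culture number between tissues has little basis in these values. Alternatives were a stricter peak threshold (−log10 q or fold of at least 3), other lengths, distances and overlaps, each library left out, and a block by culture number.

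The members and gene lists were chosen with earlier results of these data known. Genes were named by rule: the 20 protein-coding promoters with the most bases under regions, the 10 longest regions, forebrain genes with a region, the longest regions of both brainstem K27M lists, and up to 3 genes of each other list. Loci outside that rule (Tle4, Egr3, Sim2 and the largest clusters), the H3K4me3 of nearest genes and the strong K27M peaks were chosen after their values were seen. Results for some genes are not reported here.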

Additional observations from a re-analysis of the deposited data

How the results depend on the processing

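The higher share of brainstem-control regions with H3K27me3 in brainstem than in cortex K27M lists held its direction in all 19 alternatives (0.605 to 27.2 percentage points; exact permutation p from 0.1 to 0.5), and the log2 ratio to shared regions in all 20 (3.08 to 5.87). Leaving each K27M library out of the test gave 8.30 to 8.87 percentage points and 3.86 to 5.87. Leaving a control library out of the rule moved the first value far more, to 0.605 without brainstem control 61, 3.61 without brainstem control 59 and 5.71 without cortex control 61, and gave log2 ratios of 3.08 and 3.51 without cortex control 60 and 61. No alternative could pass 0.05, since the smallest p the design allows is 0.1, so the p-values say nothing of stability. In a replicate block over cultures 59 and 61, paired by number, these values were 8.87 percentage points and 5.87, and the H3K4me3 differences were -0.0352 in controls, 0.0704 in K27M and, reversed, 0.0176 over both genotypes. Without pairing, K27M minus control for H3K4me3 was 0.188. The H3K4me3 differences between tissues had no stable direction. In controls the difference turned to 0.736 with peaks of −log10 q of at least 3, 1.46 with folds of at least 3 and 0.0663 without cortex control 61 in the rule. In K27M it turned to -1.27 and -0.502 under these peak thresholds, -0.798 with regions of at least 1000 bp, -0.332 with cortex control bases subtracted, -0.0643, -0.161, -0.160 and -0.0332 without cortex control 60, cortex control 61, brainstem control 59 and brainstem control 61 in the rule, -0.0638 by base pairs and -0.313 with domains joined within 5000 bp. It ranged from -0.305 to 0.399 with each library left out, with -0.305 and -0.0704 without brainstem and cortex K27M 59. Over both genotypes it turned to 0.477 with folds of at least 3, and with each library left out it ranged from -0.223 to 0.129, with 0.00586, 0.0235 and 0.129 without cortex control 60, cortex control 61 and brainstem K27M 61.

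The number of regions depended on the rule: 249 and 332 under the stricter −log10 q and fold, 167 of at least 1000 bp, 811 with no cortex control peak within 1000 bp, 3211 with cortex bases subtracted, 3517 without cortex control 61, 5428 without brainstem control 59 and 21554 without brainstem control 61. Genes with a region at the promoter (131) became 42, 80, 19, 70 and 320 under the first of these settings in the same order, 216 and 407 without cortex control 60 and 61, 489 and 2410 without brainstem control 59 and 61, 77 with a promoter from 1000 bp upstream to 500 bp downstream and 71 for protein-coding genes. The share of regions at promoters became 15.3%, 20.5% and 11.4% under the stricter −log10 q, fold and length, 11.97% and 12.1% without cortex and brainstem control 61, and 5.70% and 5.21% with the narrower promoter and with protein-coding genes. The difference from shared regions in brainstem K27M lists moved to -36.9, -43.6 and -28.4 percentage points under the stricter −log10 q, fold and length, -17.3 with bases subtracted, -30.3 and -14.8 without cortex and brainstem control 61, -17.3 for peaks over at least 50% of a fragment, -41.4 by base pairs, -32.7 with joined domains and -2.05 with weighting, an alternative chosen after seeing the data. The cause of these changes was not tested. Depth was not used here, and a missing peak sets no limit on the signal below the threshold.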
